A study of Mus musculus with 9 samples.

Results

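The genes described here are the mouse splicing factor genes whose symbols begin with Hnrnp or Srsf. The rule picks members by symbol, with no measured value, as protein-coding genes of the GRCm38 annotation, which gave 20 hnRNP genes and 11 SR genes, 31 of the 55573 genes counted. Their RNA was read in 9 libraries of splenic CD4+ T cells of the B6 mouse strain, 3 for each of 3 conditions. Naive cells were left unactivated. The remaining cells spent 3 hours at 37 °C or at 39 °C on plastic carrying anti-CD28 and anti-CD3, antibodies that engage the costimulatory receptor CD28 and the T cell receptor. No allele or other treatment was named for any group, and neither the age of the mice nor whether replicate libraries stem from different animals or dishes was given. The p-values therefore speak of the spread among these libraries, which may be technical. It was also not stated whether naive cells were kept in medium for the same time. The culture was described as spleen cells while the source was labelled as CD4+ T cells, so the effects of sorting and of activation cannot be told apart in the comparisons with naive cells.

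Heterogeneous nuclear ribonucleoproteins, or hnRNPs, coat newly made RNA and often keep the splicing machinery from an exon, while SR proteins, named for their arginine- and serine-rich tail, bind exonic enhancers and mostly favour inclusion of the exon. The balance of these families is known to steer alternative splicing in T cells, where activation switches the exons of the phosphatase CD45. The activity and location of SR proteins depend on phosphorylation of their tails, by SRPK kinases mainly in the cytoplasm and CLK kinases in the nucleus, and many SR and hnRNP genes limit their own level by splicing in an exon that marks the RNA for decay. Counts per gene, as used here, do not separate such isoforms from the coding ones.

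Total counts ranged from 12647692 to 17605549 per library, and all 31 genes passed the count filter, with a lowest single count of 15, in Srsf12. Values below are CPM, the counts scaled to a common library size by TMM, and ± is the SD over 3 libraries, or the standard error beside a log2 fold change. Among the members naive library 1 stood apart: it was the highest naive library for 26 of the 31 genes and the lowest for the other 5. It was at 0.564 to 1.32 times the mean of the other naive libraries. The same count over all genes was not made, so this is not shown to be particular to these genes. The defining T cell transcripts were present throughout, with a summed level of 14 CD4 T cell markers of 8384 to 10029 CPM in naive libraries, 8908 to 9277 at 37 °C and 9066 to 9640 at 39 °C. The sum of 14 B cell markers was 945 to 1160.1 CPM in naive libraries, 374 to 392 at 37 °C and 387 to 411 at 39 °C, and that of 9 erythroid and platelet markers was 135 to 226, 2.79 to 3.29 and 2.94 to 4.18 CPM. At 37 °C against naive 30.9% of all genes tested were called higher and 31.8% lower. Of the CD4 T cell list 4 of 14 rose and 5 fell, so its sum hides moves in both directions. Of the B cell list 12 of 14 fell and 1 rose, and all 5 tested erythroid and platelet genes fell, while Pf4 had no count in any library. The sums of 2 CD8, 6 NK and 12 myeloid and neutrophil markers were 25.8 to 36.1, 73.0 to 87.0 and 53.0 to 77.4 CPM in naive libraries, 13.5 to 15.1, 42.2 to 44.3 and 38.9 to 45.6 CPM at 37 °C, and 12.6 to 14.6, 37.9 to 40.3 and 41.5 to 49.5 CPM at 39 °C. For 6 stroma and endothelium markers, of which 1 passed the count filter and Kdr had no count, the sum was 296 to 318, 131 to 136 and 157 to 162 CPM. The NK sum was thus lower and the stroma sum higher in all 39 °C libraries than in all 37 °C libraries, while edgeR called 0 genes of any marker list between the temperatures. With 1 gene past the filter, the stroma sum cannot tell whether stroma cells were present. The part of any other cells in the differences from naive was not tested, and in bulk RNA fewer cells of a type cannot be told apart from less RNA per cell.

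Promoter sequences were looked at because most members that changed moved the same way. The RefSeq table for GRCm38.p6, which gives 250 bases before and 50 after a gene's start, held 29 of the 31 genes (not Hnrnpll and Hnrnpul2), and the first listed start was used. Shown are the hnRNP and the SR gene with the largest rise among those in the table (Hnrnpab and Srsf2), the abundant SR gene that fell (Srsf5), and Hnrnpa2b1, 1 of the 3 members with the core motif of heat shock factor. Capitals mark matches on either strand to any of 7 searched motifs. For heat shock factor the letters were GAANNTTC. The E-box was spelled CACGTG, and the GC box, bound by Sp1 and its relatives, GGGCGG. The box of the factor NF-Y was written CCAAT. Factors of the ETS family were searched by CCGGAAG. The cyclic AMP response element was given as TGACGTCA, and the TATA box, found at focused start sites, as TATAAA.
Hnrnpab (GRCm38.p6, chr11:51606832-51607131, reverse strand): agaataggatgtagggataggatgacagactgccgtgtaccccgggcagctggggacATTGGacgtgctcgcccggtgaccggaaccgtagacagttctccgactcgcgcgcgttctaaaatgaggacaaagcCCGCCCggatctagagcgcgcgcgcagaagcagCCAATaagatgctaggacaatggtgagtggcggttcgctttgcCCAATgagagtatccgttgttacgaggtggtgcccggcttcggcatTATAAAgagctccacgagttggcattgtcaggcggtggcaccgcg
Srsf2 (GRCm38.p6, chr11:116853045-116853344, reverse strand): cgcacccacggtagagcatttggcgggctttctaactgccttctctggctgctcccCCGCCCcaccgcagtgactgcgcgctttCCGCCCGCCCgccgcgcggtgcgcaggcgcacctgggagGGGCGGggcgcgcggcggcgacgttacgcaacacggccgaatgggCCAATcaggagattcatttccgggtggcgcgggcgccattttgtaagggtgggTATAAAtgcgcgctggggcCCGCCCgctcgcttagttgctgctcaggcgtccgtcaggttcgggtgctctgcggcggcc
Srsf5 (GRCm38.p6, chr12:80945249-80945548, forward strand): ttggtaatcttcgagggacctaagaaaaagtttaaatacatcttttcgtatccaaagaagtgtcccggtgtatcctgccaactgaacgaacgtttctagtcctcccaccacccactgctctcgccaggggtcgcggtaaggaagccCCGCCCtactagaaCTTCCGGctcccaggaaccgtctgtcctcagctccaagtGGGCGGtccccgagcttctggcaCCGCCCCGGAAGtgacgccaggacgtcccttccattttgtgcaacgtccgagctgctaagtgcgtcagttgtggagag
Hnrnpa2b1 (GRCm38.p6, chr6:51469845-51470144, reverse strand): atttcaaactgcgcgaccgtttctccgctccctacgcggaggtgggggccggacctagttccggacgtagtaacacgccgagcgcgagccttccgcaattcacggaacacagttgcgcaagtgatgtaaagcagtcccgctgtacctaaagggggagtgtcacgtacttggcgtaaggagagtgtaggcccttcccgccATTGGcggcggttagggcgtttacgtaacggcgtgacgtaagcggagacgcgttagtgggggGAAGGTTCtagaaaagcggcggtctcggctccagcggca
In Srsf5 a GC box and an ETS motif overlap, and in Srsf2 GC boxes overlap each other. A GC box was found in 23 of 29 member promoters (79.3%), against 46.3% of the 17492 protein-coding promoters and 35.9% of all 27025 promoters of that length, and CCAAT in 16 (55.2%), against 39.0% and 37.9%. The members' promoters had a median GC content of 68.3%, against 56.3% for protein-coding genes, and the shares above were not matched for it. ETS motifs were in 6 of 29 (20.7%, against 11.9% and 9.12%), E-boxes in 4 (13.8%, against 7.90% and 7.24%), all of them hnRNP genes, and TATAAA in 4 (13.8%, against 13.3% and 14.2%). The heat shock factor core was in 3 of 29, Hnrnpa2b1, Hnrnpl and Srsf9 (10.3%, against 7.33% and 7.95%), and the cyclic AMP element in 0 (2.34% and 1.88%). Srsf2, which rose, and Srsf5, which fell, both held GC boxes.

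Setting 37 °C against naive asks how this set differed after 3 hours of stimulation, and includes any effect of sorting. By edgeR's quasi-likelihood test with Benjamini-Hochberg adjustment over 13328 genes, 17 of the 31 members rose, 3 fell and 11 were not called. Of all genes tested 62.7% were called, 30.9% higher and 31.8% lower, so the members' share called (64.5%) was near the background, with 54.8% of them higher and 9.68% lower. At an unadjusted p under 0.05 there were 21 members, against 66.2% of all genes. All 37 °C libraries lay above all naive ones in 18 members and below them in 3, against 65.4% of all genes without overlap, 32.7% above and 32.7% below. The members' median log2 fold change was 0.23, against -0.0025 over all genes. Changes of 2-fold or more were rare: 1 member, Srsf12, differed by that much, while 21.3% of all genes tested were called at that size. The median size of the members' changes was 0.40, against 0.49 over all genes, not matched for count level. With upper-quartile scaling, which moved the median of all genes to -0.14, the split was 14 higher and 5 lower. The share of all genes called with that scaling was not taken.

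**Figure D1:**
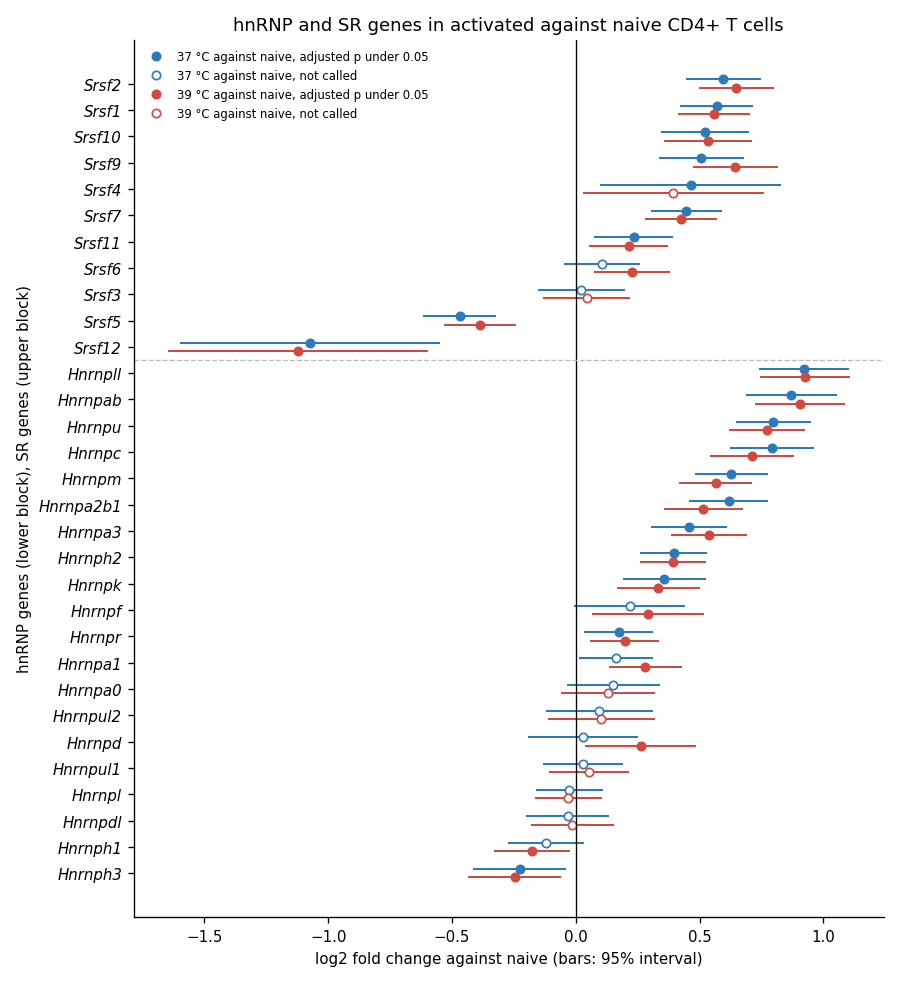
Log2 fold change of each hnRNP and SR gene (y axis) against naive cells (x axis), at 37 °C in blue and 39 °C in red, with 95% intervals from edgeR; filled points passed adjusted p 0.05. Hnrnpll, Hnrnpab, Hnrnpu and Hnrnpc lie farthest to the right and Srsf12 and Srsf5 farthest to the left, and the 2 temperatures, which share the naive libraries, lie close together for nearly every gene.

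Among the hnRNP genes 10 rose, 1 fell and 9 were not called. Hnrnpll (ENSMUSG00000024095, GRCm38 chromosome 17, 80029487 to 80062334) had the largest rise, and its protein represses exons of CD45 in activated T cells. It stood at 52.1, 50.0 and 42.4 CPM in naive libraries 1, 2 and 3, at 87.6, 95.1 and 90.8 CPM at 37 °C, and at 87.0, 95.3 and 91.9 CPM at 39 °C. Every activated library was thus above every naive one, with a log2 fold change of 0.92 ± 0.083 at 37 °C (adjusted p = 1.39e-06, edgeR). Its paralog Hnrnpl, which binds CA-rich RNA and acts on the same exons, did not pass the test, at 474 ± 11.2 CPM in naive cells and 465 ± 10.9 at 37 °C (-0.026 ± 0.062, 95% interval -0.16 to 0.11). Upper-quartile scaling called Hnrnpl lower, at -0.16.

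Hnrnpab (ENSMUSG00000020358, GRCm38 chromosome 11, 51600100 to 51606847), which encodes an hnRNP related to the AU-rich element binder AUF1, rose next most. It was at 144, 127 and 137 CPM in the naive libraries, 262, 235 and 250.0 CPM at 37 °C, and 269, 269.9 and 227 CPM at 39 °C. The groups did not overlap, and the log2 fold change at 37 °C was 0.87 ± 0.084. Of its exon bases 29.1% lie under the gene Phykpl on the opposite strand, and reads there cannot be assigned without strand. Hnrnpd, the AUF1 gene itself, and its relative Hnrnpdl were not called at 37 °C, at 0.03 ± 0.10 and -0.032 ± 0.077. Hnrnpd was at 251, 189 and 192 CPM in the naive libraries and at 212, 206 and 227 CPM at 37 °C, so that naive library 1 alone was above the 37 °C range. Without that library Hnrnpd was called higher at 0.18.

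Hnrnpu encodes a large nuclear matrix protein, also known as scaffold attachment factor A, that binds both chromatin and RNA. It was at 621, 676 and 667 CPM in the naive libraries, at 1124, 1163 and 1130.4 CPM at 37 °C, and at 1101, 1100.4 and 1154 CPM at 39 °C. The rise at 37 °C (0.80 ± 0.07, adjusted p = 1.10e-06) left no overlap with naive cells. Its paralogs Hnrnpul1 (0.03 ± 0.074) and Hnrnpul2 (0.095 ± 0.099) were not called, and both turned to a negative sign without naive library 1 or with upper-quartile scaling. Hnrnpc, which binds uridine tracts and keeps cryptic exons out of mRNA, rose from 324 ± 29.1 to 560.3 ± 24.4 CPM (0.79 ± 0.078). Hnrnpm, a binder of GU-rich RNA, rose from 389 ± 21.8 to 602 ± 12.2 CPM (0.63 ± 0.067). Hnrnpk, a poly-C binder with KH domains, rose from 580.0 ± 48.9 to 743 ± 25.1 CPM (0.36 ± 0.077), and Hnrnpr, a relative of Syncrip, from 146 ± 9.10 to 164 ± 2.07 CPM (0.17 ± 0.064, adjusted p = 0.0331). The call of Hnrnpr was lost in 12 of 18 alternatives, with values of 0.039 to 0.19.

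The A/B group, which recognises UAG-containing sites and often silences exons, was uneven. Hnrnpa2b1 was the most counted member, at 992, 924 and 892 CPM in the naive libraries, 1423, 1417 and 1470.4 CPM at 37 °C, and 1392, 1291 and 1331 CPM at 39 °C. It rose by 0.62 ± 0.073 on the log2 scale at 37 °C, and Hnrnpa3 rose by 0.46 ± 0.071, from 511 ± 25.2 to 702 ± 27.7 CPM. Hnrnpa1, per kb of exon the highest hnRNP gene in naive cells (211 ± 10.1 CPM per kb), was at 702, 657 and 641 CPM in the naive libraries and at 741, 739 and 759 CPM at 37 °C. The groups did not overlap, yet the change of 0.16 ± 0.068 did not pass (adjusted p = 0.0537, edgeR). It passed by DESeq2, with a filter of 1 CPM in 3 libraries and without naive library 1, at 0.16, 0.16 and 0.20. Hnrnpa0, an intronless member, was not called at 0.15 ± 0.087, and was called at 0.23 without naive library 1. Hnrnpa1 and Hnrnpa3 share 28.2% and 27.1% of their 50-base transcript windows with other annotated genes, mostly pseudogenes, so reads could be split between copies.

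The H/F group binds runs of guanines near splice sites and held the one hnRNP gene that fell. Hnrnph3 was at 64.3, 53.9 and 52.0 CPM in the naive libraries, 46.7, 47.6 and 51.2 CPM at 37 °C, and 48.6, 46.2 and 48.6 CPM at 39 °C. No activated library reached the naive range, but naive library 1 carried much of the distance. The fall of 0.23 ± 0.086 on the log2 scale (adjusted p = 0.0365) lost its call in 8 of 18 alternatives, and was 0.13 without that library, a change of more than 1.5 times. Hnrnph1 was not called at -0.12 ± 0.07, and upper-quartile scaling called it lower at -0.26. Hnrnph2, on the X chromosome, rose from 108 ± 4.65 to 141 ± 1.30 CPM (0.40 ± 0.062), and Hnrnpf was not called at 0.22 ± 0.10, with a call at 0.36 without naive library 1. Of the windows of Hnrnpf 61.9% occur in other genes, the most of any member, so its level is uncertain.

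Among the SR genes 7 rose, 2 fell and 2 were not called. Srsf2, also known as SC35 and a classic mark of nuclear speckles, was at 216, 194 and 188 CPM in the naive libraries, 295, 296 and 313 CPM at 37 °C, and 315, 310.3 and 311 CPM at 39 °C. Srsf1, the founding member of the family, was at 309, 284 and 280.3 CPM in the naive libraries, 420.3, 428 and 448 CPM at 37 °C, and 420.2, 426 and 439.6 CPM at 39 °C. In both genes the activated libraries lay wholly above the naive ones, with log2 fold changes at 37 °C of 0.60 ± 0.069 for Srsf2 and 0.57 ± 0.067 for Srsf1. Of the exon bases of Srsf2 25.3% overlap Mettl23 and Mfsd11 on the other strand.

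Srsf10 encodes a factor known to turn into a general splicing repressor when it loses its phosphates during heat shock. It was at 184, 163 and 148 CPM in the naive libraries, 230.2, 235 and 246 CPM at 37 °C, and 236, 233 and 249 CPM at 39 °C. It rose by 0.52 ± 0.081 at 37 °C, without overlap. Its paralog Srsf12 (ENSMUSG00000054679, GRCm38 chromosome 4, 33208991 to 33233340) moved the other way, at 3.92, 3.43 and 3.66 CPM in the naive libraries, 1.57, 1.79 and 1.86 CPM at 37 °C, and 1.74, 2.30 and 1.05 CPM at 39 °C. This fall (-1.07 ± 0.24, adjusted p = 0.00203, edgeR) was the largest of any member on the log2 scale, at the lowest level of any member. Srsf9, close to Srsf1 in build, rose from 38.2 ± 2.13 to 54.3 ± 1.35 CPM (0.51 ± 0.078).

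Srsf5 (ENSMUSG00000021134, GRCm38 chromosome 12, 80945504 to 80950507) was the highest SR gene in naive cells per kb of exon, at 206 ± 9.0 CPM per kb. Its libraries were at 863, 803 and 798 CPM in naive cells, 592, 584 and 603 CPM at 37 °C, and 643, 612 and 627 CPM at 39 °C. All activated libraries were below all naive ones, and the log2 fold change at 37 °C was -0.47 ± 0.067 (adjusted p = 6.85e-05, edgeR). Srsf4 and Srsf6 are its nearest relatives, with a pair of RNA recognition motifs each. Srsf6 was at 556, 499.9 and 492 CPM in the naive libraries and 551, 549 and 565 CPM at 37 °C, and was not called at 0.10 ± 0.07, turning to -0.03 with upper-quartile scaling and called at 0.16 without naive library 1. Srsf4 was at 18.8, 34.0 and 32.5 CPM in the naive libraries and rose to 39.3 ± 1.22 CPM at 37 °C (0.46 ± 0.17, adjusted p = 0.0294, edgeR), a call lost in 7 of 18 alternatives. Naive library 1 was far below the others in this gene, and without it the rise was 0.24, still called. In Srsf4 43.0% of its exon bases lie under Gm12992 on the other strand.

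The proteins of Srsf3 and Srsf7 link splicing to mRNA export as adaptors for the export receptor NXF1. Srsf7 rose from 308 ± 15.4 to 419 ± 13.2 CPM (0.45 ± 0.066), whereas Srsf3 was not called (0.022 ± 0.08, 95% interval -0.15 to 0.20) and changed sign with the scaling. Srsf3 was at 373, 304 and 316 CPM in the naive libraries and at 330.0, 329 and 349 CPM at 37 °C, a range that lies within the naive one. Srsf11, a partner of the U2AF splice site factor, rose from 342 ± 21.7 to 402 ± 9.66 CPM (0.23 ± 0.073, adjusted p = 0.0141), a call lost in 4 of 18 alternatives, with 0.10 under upper-quartile scaling. Of the 20 calls at 37 °C, 16 held in all 18 alternatives, and those of Srsf4, Srsf11, Hnrnph3 and Hnrnpr did not.

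**Figure D2:**
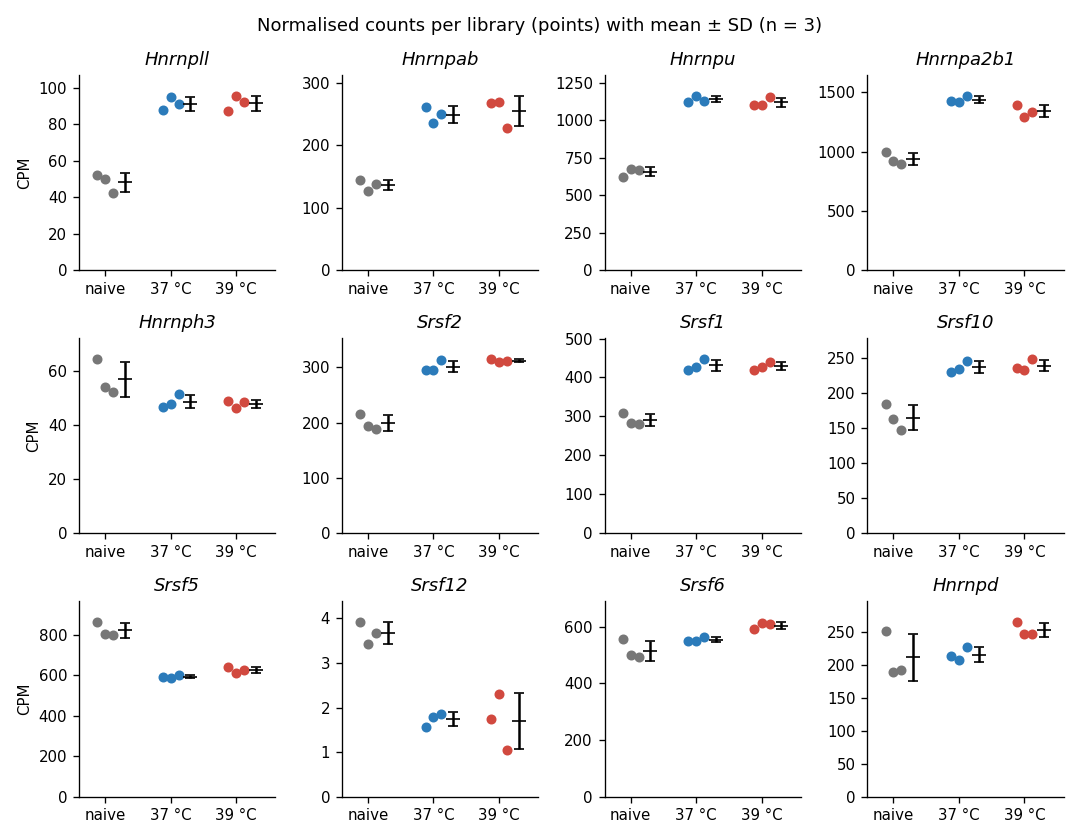
CPM (y axis, from 0) of 12 members in each library (points) of the naive, 37 °C and 39 °C groups, with mean ± SD (n = 3) beside them. Hnrnpll, Hnrnpab, Hnrnpu, Hnrnpa2b1, Srsf1, Srsf2 and Srsf10 are higher and Srsf5, Srsf12 and Hnrnph3 lower in all activated libraries than in all naive libraries, while Srsf6 and Hnrnpd are highest on average at 39 °C.

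The unequal changes altered the make-up of both families. Levels per kb of annotated exon were summed within each family, and each member's share of that sum was taken in each library, so library depth and scaling cancel. Exons of all annotated transcripts were counted as length, which lowers the level of any gene with long exons that are rarely used. Hnrnpr and Hnrnpll had the longest exon sums, at 22199 and 11677 bases, and exon use was not measured. Srsf5 gave 31.4 ± 0.34% of the SR sum in naive cells, 20.4 ± 0.176% after activation at 37 °C and 20.9 ± 0.392% after activation at 39 °C. Srsf2 went from 10.3 ± 0.211% to 14.0 ± 0.167% and 14.1 ± 0.078%, Srsf7 from 13.2 ± 0.213% to 16.2 ± 0.218% and 15.5 ± 0.348%, and Srsf1 from 7.77 ± 0.0157% to 10.4 ± 0.149% and 9.99 ± 0.237%. Srsf6, the second in naive cells at 16.3 ± 0.212%, was at 15.8 ± 0.0977% and 16.7 ± 0.411%. In order of level per kb, naive cells had Srsf5, Srsf6, Srsf7, Srsf2 and Srsf1 at the top. At 37 °C Srsf7 (118 ± 3.71 CPM per kb) and Srsf6 (115 ± 1.77) lay within their spread of each other.

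**Figure D3:**
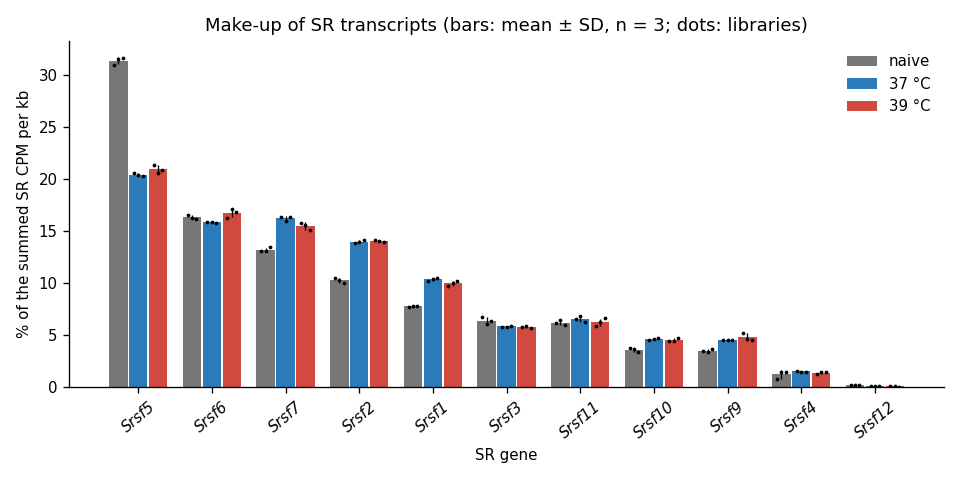
Share of each SR gene (x axis) in the summed SR level per kb of exon (y axis, %), as mean ± SD of 3 libraries with single libraries as dots. The bar of Srsf5 is 31.4% in naive cells and 20.4% and 20.9% after activation, and those of Srsf2, Srsf7 and Srsf1 are taller after activation.

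In the hnRNP family Hnrnpa1 held 14.2 ± 0.295% of the summed level per kb in naive cells, 12.8 ± 0.0922% after activation at 37 °C and 13.8 ± 0.0751% after activation at 39 °C. Hnrnpa2b1 held 9.56 ± 0.234%, 11.8 ± 0.0941% and 10.9 ± 0.254%, and Hnrnpc 5.03 ± 0.171%, 7.0 ± 0.183% and 6.60 ± 0.0457%. Hnrnph1, at 7.18 ± 0.286% in naive cells, was at 5.30 ± 0.254% and 5.08 ± 0.282%. The hnRNP genes summed to 0.775 ± 0.0176% of a naive library, 0.973 ± 0.0113% of a 37 °C library and 0.971 ± 0.0103% of a 39 °C library, and all SR genes 0.307 ± 0.0122%, 0.334 ± 0.00589% and 0.344 ± 0.00438%.

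Ratios between pairs of members were formed in each library; the pairs were picked after their values had been seen, so no test is given. The ratio of Hnrnpa2b1 to Hnrnpa1 per kb was 0.676, 0.674 and 0.666 in naive libraries, 0.919, 0.918 and 0.928 at 37 °C, and 0.800, 0.774 and 0.798 at 39 °C. The 3 groups did not overlap, with 39 °C between the others. Between the temperatures this follows from the choice of pair. All 39 °C libraries lay below the 37 °C ones in Hnrnpa2b1 and above them in Hnrnpa1. The ratio of Hnrnpc to Hnrnpk had the same order, at 0.834 ± 0.00959, 1.13 ± 0.0109 and 1.09 ± 0.0113. More ratios were formed than are shown, and not all of them had this order. Hnrnpll to Hnrnpl was 0.0518 ± 0.00445 in naive cells and 0.10 ± 0.00644 and 0.10 ± 0.00436 after activation, and Srsf1 to Srsf5 was 0.247 ± 0.00239, 0.509 ± 0.0116 and 0.477 ± 0.0179. Reads that Hnrnpa1 shares with its copies may be split between them or missing from its counts, which would alter its ratio with Hnrnpa2b1. Hnrnpk shares 17.8% of its windows with other genes, so the same limit holds for its ratio with Hnrnpc.

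**Figure D4:**
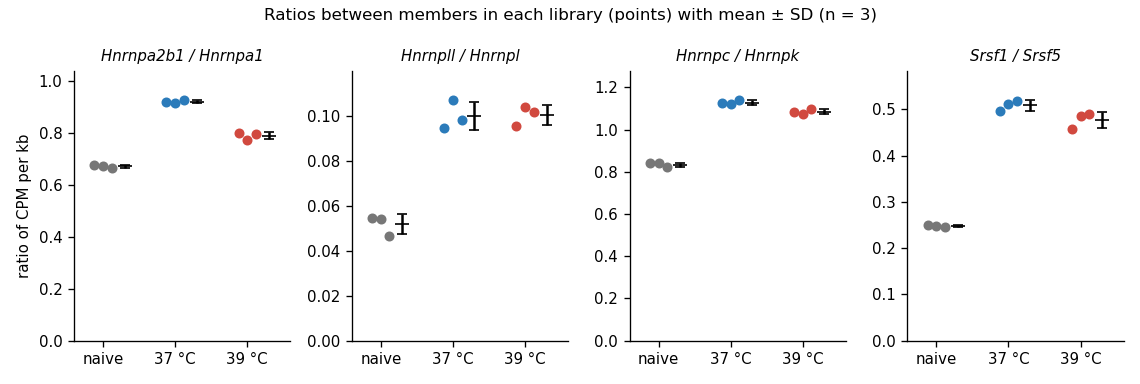
Ratio of CPM per kb (y axis, from 0) between 2 members in each library, by group, with mean ± SD (n = 3). Hnrnpa2b1 to Hnrnpa1 is lowest in naive cells, near 0.67, highest at 37 °C, near 0.92, and between them at 39 °C. The pairs were picked after their values had been seen.

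The comparison of 39 °C with 37 °C asks whether a febrile temperature during activation altered these genes. By edgeR 0 of the 31 members passed, with 1 at an unadjusted p under 0.05, and DESeq2 called 0. Of all genes 0.758% passed and 7.96% had an unadjusted p under 0.05. The members' log2 fold changes ran from -0.10 to 0.23 with a median of 0.003, against 0.0041 over all genes. The median size was 0.026, against 0.10 over all genes. These sizes were not matched for count level, and genes with few counts are less precise. The gap is therefore not shown to be particular to these families. The 95% intervals, not adjusted for the number of genes, spanned -0.64 to 0.54 over all members. Their width rests on the spread of all 9 libraries, naive ones included, and not on that of the compared groups alone. The naive group varied most. Its SD as a percentage of the mean had a median of 6.58% over the members. This median was 3.04% for the 37 °C group and 2.77% for the 39 °C group. Without Srsf12, the gene with the lowest counts, the intervals spanned -0.43 to 0.45. The farthest bounds among the other 30 were thus 1.37-fold up and 1.35-fold down. Each interval stands for 1 gene, so these bounds are not a joint limit and do not exclude larger changes. In simulated data made for this comparison 47 of 50 genes with a 2-fold change were called, but 4 of 50 with a change of 0.32.

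**Figure D5:**
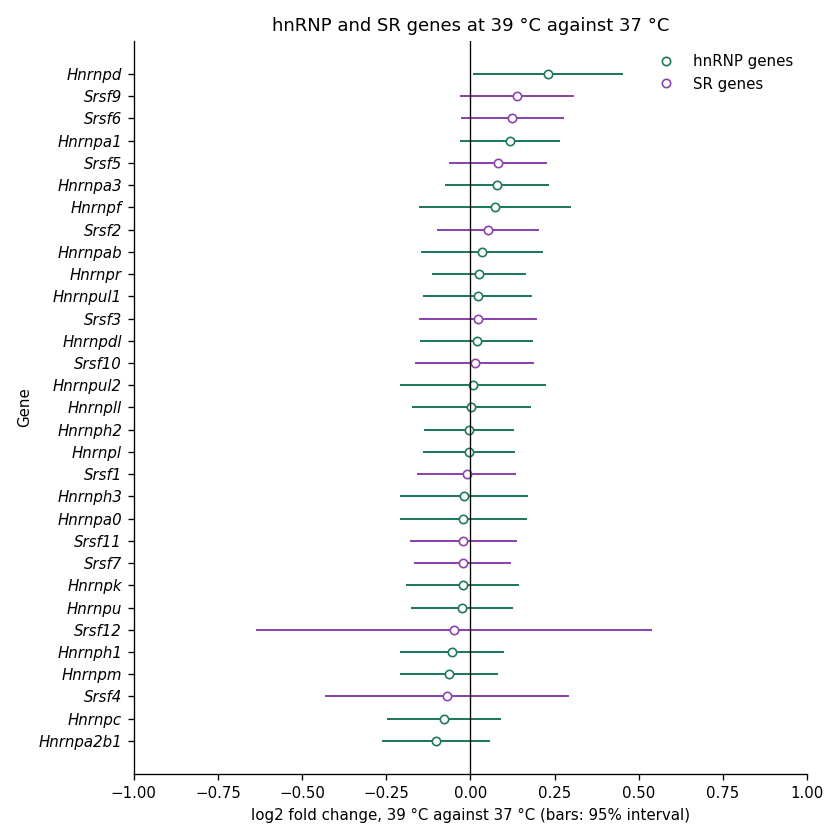
Log2 fold change at 39 °C against 37 °C (x axis) of each hnRNP and SR gene (y axis) with 95% intervals from edgeR; open points did not pass adjusted p 0.05. Nearly all intervals include 0, Hnrnpd lies farthest to the right at 0.23, and Srsf12 and Srsf4 have the widest intervals.

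Hnrnpd had the smallest p of the members. It was at 212, 206 and 227 CPM at 37 °C and at 264, 247 and 247 CPM at 39 °C, so the groups did not overlap, and naive library 1, at 251 CPM, lay within the 39 °C range. The log2 fold change of 0.23 ± 0.10 had an adjusted p of 0.606 (edgeR). It was called with only the 6 activated libraries in the fit (0.23, adjusted p = 0.0299) and without naive library 1 (0.23, adjusted p = 0.0400), fits in which the estimate stayed at 0.23 and its standard error was 0.053. It was not called in the other 16 alternatives. The standard error of 0.10 in the main fit thus includes spread from a group outside this comparison. For Hnrnpd the naive group had an SD of 35.3 CPM. The activated groups had SDs of 10.8 CPM (37 °C) and 10.1 CPM (39 °C).

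Next by p were Srsf9, Srsf6 and Hnrnpa1. Srsf9 was at 53.7, 53.3 and 55.8 CPM at 37 °C and 65.5, 56.9 and 56.6 CPM at 39 °C, where library 1 was high (0.14 ± 0.077, adjusted p = 0.737, edgeR). Srsf6 was at 591, 614 and 609.6 CPM at 39 °C, above its 37 °C libraries (0.12 ± 0.07, adjusted p = 0.745). Hnrnpa1 was at 833, 798 and 799 CPM at 39 °C, also above its 37 °C libraries (0.12 ± 0.068, adjusted p = 0.752). In 8 of the 31 members (25.8%) the temperatures did not overlap, against 20.9% of all genes tested, a share near the background. Hnrnpd, Hnrnpa1, Hnrnpf, Srsf5, Srsf6 and Srsf9 were the 6 that were above, and Hnrnpa2b1 (-0.10 ± 0.073) and Hnrnpm (-0.063 ± 0.067) the 2 below. For Srsf10, the factor tied to heat shock, the value was 0.013 ± 0.081 (95% interval -0.16 to 0.19), and for Hnrnpll 0.003 ± 0.081 (-0.17 to 0.18).

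At 39 °C against naive 20 members rose and 4 fell, with 58.9% of all genes called, 29.2% higher and 29.8% lower. At an unadjusted p under 0.05 there were 25 members, against 63.2% of all genes, and 24 members did not overlap between the groups, against 61.3%. Of all genes 18.7% were called at 2-fold or more, and 1 member, Srsf12. This comparison shares the naive libraries with that at 37 °C, so the values are given side by side only. Hnrnpll was at 0.93 ± 0.083 and Hnrnpab at 0.91 ± 0.084, against 0.92 and 0.87 at 37 °C. Srsf9 was at 0.64 ± 0.078, against 0.51, and Hnrnpa2b1 at 0.52 ± 0.073, against 0.62. Members called at 39 °C and not at 37 °C were Hnrnpa1 (0.28 ± 0.068), Hnrnpf (0.29 ± 0.10), Hnrnpd (0.26 ± 0.10), Srsf6 (0.23 ± 0.07) and Hnrnph1 (-0.18 ± 0.07), and Srsf4 was called at 37 °C alone (0.39 ± 0.17, adjusted p = 0.0613, edgeR). As these members did not pass between 37 °C and 39 °C, the difference was not shown. Of the 24 calls at 39 °C, 16 held in all 18 alternatives. The call was lost in 12 alternatives for Hnrnph1, in 11 for Hnrnpd, in 6 each for Hnrnpf, Hnrnpr and Srsf11, in 5 for Hnrnph3, in 4 for Srsf6 and in 1 for Hnrnpa1. Upper-quartile scaling gave 0.15 for Hnrnpa1, 0.16 for Hnrnpf, 0.14 for Hnrnpd and 0.10 for Srsf6, none of them called. Without naive library 1 Hnrnpd was at 0.41, still called, and Hnrnph3 went from -0.25 to -0.15, no longer called. Without naive library 2 Hnrnpf was at 0.19, no longer called. The 4 lower members became 2 without naive library 1 or without 39 °C library 2 or 3.

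Other genes of the splicing pathway were read from lists of kinases, SR-related proteins, spliceosome subunits and further RNA-binding regulators. At 37 °C 4 of 11 genes for SR kinases and importers rose and 4 fell, with a median log2 fold change of -0.0042. The kinase genes fell where they were called, apart from Prpf4b: Srpk2 (-0.85 ± 0.065), Srpk3 (-2.04 ± 0.30, from 2.32 to 0.555 CPM), Clk1 (-0.58 ± 0.08, from 535 to 359 CPM) and Clk4 (-0.38 ± 0.07). Srpk1, the most counted SRPK gene at 413 CPM in naive cells, was not called (-0.048 ± 0.063). The genes of the importers rose, among them Tnpo3, which carries phosphorylated SR proteins into the nucleus (0.79 ± 0.13).

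Of 28 genes for SR-related and exon junction proteins 17 rose and 1 fell at 37 °C, with a median of 0.33. Scaf4 (1.04 ± 0.10) and Rnps1, which joins SR proteins to the exon junction complex (0.85 ± 0.066), rose and Rsrc1 fell (-0.74 ± 0.086). Of 26 U1, U2 and Sm core genes 15 rose and 1 fell (median 0.46), with the U1 gene Snrpa at 1.16 ± 0.11 and the U2 genes Sf3b3 at 0.85 ± 0.071 and Sf3a1 at 0.63 ± 0.06. Of 39 genes of the tri-snRNP and catalytic core 24 rose and 2 fell (median 0.34), with Prpf19 at 0.92 ± 0.079, Eftud2 at 0.80 ± 0.064 and Prpf3 at 0.80 ± 0.058. Of 44 tested genes for other regulators 25 rose and 8 fell (median 0.33), with Fubp1 (1.52 ± 0.079) and Syncrip (1.13 ± 0.067) among those that rose. The 8 that fell were Cirbp, a cold-inducible RNA-binding protein gene (-1.10 ± 0.081), Celf2 (-0.76 ± 0.071), Mbnl2 (-0.54 ± 0.11), Rbm3, Mbnl1, Tia1, Ddx5 and Rbm5. The background for each list is the 30.9% higher and 31.8% lower given above. Between 39 °C and 37 °C edgeR and adjusted p called 0 genes of any of these 5 lists, with 0, 1, 0, 1 and 1 genes at an unadjusted p under 0.05.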

How the data were processed

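The rule for the members uses symbols only, but these families and the gene lists were proposed with earlier results of these data known. RNA of 9 libraries, 3 per group, was sequenced from kits that do not mark strand, per the labels' protocols. Per the submitters' processing notes the tools were HISAT2, HTSeq, FastQC and DESeq2 and the build GRCm38. Tool versions, strand setting and annotation release are not given in the sources used here. The deposited values are raw counts per gene, per the file contents, for 55573 gene identifiers, of which 55480 were matched to GENCODE M21 for names, exons and coordinates. Total counts ran from 12647692 to 17605549, which makes members with few counts, above all Srsf12, the least precise.

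Genes were kept by edgeR's filterByExpr (minimum count 10, minimum total 15), leaving 13328. One model of the 9 libraries was fitted with edgeR 4.0.16 in R 4.3.3 (TMM scaling, quasi-likelihood F test), with Benjamini-Hochberg adjustment over all genes and a threshold of 0.05. Intervals are at the 95% level. All 31 members are reported. Those given in full are the ones with the largest changes, their paralogs, and the 4 with the smallest p between temperatures. Shared sequence was measured as 50-base windows found in other genes' transcripts. The test was tried on simulated counts. The 18 alternatives covered scaling, filters, DESeq2 1.42.0, the samples in the fit, the threshold, a replicate block and leaving out each library.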

Additional observations from a re-analysis of the deposited data

How the results depend on the processing

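In 18 alternatives the members higher and lower than naive cells were 14 and 5 with upper-quartile scaling at 37 °C, and 14 and 5 at 39 °C. At 39 °C 2 members were lower with only the 6 libraries compared and 2 at an adjusted p under 0.01. Leaving out each library in turn gave 14 to 22 higher and 2 to 3 lower at 37 °C, and 15 to 22 higher and 2 to 4 lower at 39 °C. Between the temperatures 1 member, Hnrnpd, was higher with the 6 activated libraries alone, and leaving out single libraries gave 0 to 1 higher and 0 to 0 lower. The share of all genes called in each alternative was not taken. A shift in the members' calls therefore cannot be told apart from a shift over all genes. Some members that were not called changed sign. With upper-quartile scaling the values at 37 °C were -0.11 for Srsf3, -0.030 for Srsf6, -0.10 for Hnrnpd, -0.10 for Hnrnpul1 and -0.039 for Hnrnpul2, and at 39 °C -0.083 for Srsf3, -0.075 for Hnrnpul1 and -0.025 for Hnrnpul2. With library size only Srsf3 was at -0.0021 at 37 °C, and with 6 libraries Hnrnpdl was at 0.0022 at 39 °C. Leaving out single libraries gave, at 37 °C, -0.036 to 0.12 for Srsf3, -0.043 to 0.18 for Hnrnpd, -0.079 to 0.051 for Hnrnpdl, -0.041 to 0.072 for Hnrnpul1 and -0.027 to 0.19 for Hnrnpul2. At 39 °C it gave -0.014 to 0.14 for Srsf3, -0.0600 to 0.071 for Hnrnpdl, -0.018 to 0.095 for Hnrnpul1 and -0.019 to 0.20 for Hnrnpul2. The cause was not tested. Same-numbered libraries showed no clear pairing, with correlations of their deviations from -0.241 to 0.433 over 9 pairs. Differently numbered libraries ran from -0.464 to 0.472. With 3 libraries per group these values cannot settle whether libraries were paired. A replicate block gave 17 higher and 3 lower at 37 °C, 0 and 0 between temperatures, and 21 and 3 at 39 °C, with Hnrnpf called at 37 °C (0.23) and Hnrnpr not (0.17). Depth limits Srsf12 most, with 15 counts in its lowest library.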
